A study of Mus musculus with 20 samples.

Results

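The genes described here are 40 genes of cholesterol and fatty acid synthesis, picked by their symbols out of 24762 genes counted in mouse kidney RNA. Earlier results of these data were known when they were chosen. The sterol arm has 21 members and the fatty acid and triglyceride arm has 19. All 40 passed the filter on low counts and were among 15549 genes tested. The study measured kidney RNA of male mice by sequencing, in 4 groups with 5 libraries each. Both genotypes are labelled with the C57BL/6J strain. They are wild type and ARLmon/Y, and the latter carry a form of the androgen receptor made to hinder pairing of its ligand-binding domains. Mice of all 4 groups had their testes removed, so the vehicle groups are castrated mice, and each genotype then received testosterone or vehicle for 4 days. The age, the dose and the use of 1 kidney or several per library are not given in the sources used here, and nothing in the labels says that each library is a separate animal. The p-values therefore measure the spread between these libraries.

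Cholesterol is built from acetyl-CoA through mevalonate, isoprenoid units, squalene and lanosterol. Its enzymes are induced together by the transcription factor made from Srebf2 when membrane sterol is low, and Insig1 holds that factor back when sterol is ample. Fatty acids are built from acetyl-CoA, malonyl-CoA and NADPH, then elongated, desaturated and stored as triglyceride, under the factors made from Srebf1 and Mlxipl. The kidney proximal tubule, which in mice responds strongly to androgen, is better known for burning fatty acids than for making them.

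The promoters of 6 sterol arm genes are shown because 5 of these genes are among the 6 sterol members that rose with testosterone in wild type kidney, while Insig1, a classic target of the same factor, did not pass the test. Each line holds the 250 bases before the start site in RefSeq (build GRCm38.p6), 5′ to 3′ on the gene's strand. Capitals mark a sterol element core (CACNCCAC, either strand) or a CCAAT box (CCAAT, either strand), the site of the factor NF-Y that works beside the sterol factor. The windows are chr13:119690101-119690350 for Hmgcs1 (plus strand), chr17:12960726-12960975 for Acat2 (minus strand), chr13:8885356-8885605 for Idi1 (plus strand), chr8:122443423-122443672 for Mvd (minus strand), chr9:42264301-42264550 for Sc5d (minus strand) and chr5:28071162-28071411 for Insig1 (plus strand).
Hmgcs1: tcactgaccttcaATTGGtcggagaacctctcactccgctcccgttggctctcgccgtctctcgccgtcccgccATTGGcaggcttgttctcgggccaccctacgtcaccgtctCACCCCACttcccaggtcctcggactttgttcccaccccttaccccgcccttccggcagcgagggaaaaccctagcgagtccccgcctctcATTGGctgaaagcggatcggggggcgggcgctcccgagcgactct
Acat2: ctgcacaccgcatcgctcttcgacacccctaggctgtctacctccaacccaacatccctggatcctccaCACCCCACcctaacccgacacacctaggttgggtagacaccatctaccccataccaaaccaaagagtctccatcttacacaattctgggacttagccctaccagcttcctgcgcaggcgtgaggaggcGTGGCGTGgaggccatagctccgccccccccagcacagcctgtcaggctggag
Idi1: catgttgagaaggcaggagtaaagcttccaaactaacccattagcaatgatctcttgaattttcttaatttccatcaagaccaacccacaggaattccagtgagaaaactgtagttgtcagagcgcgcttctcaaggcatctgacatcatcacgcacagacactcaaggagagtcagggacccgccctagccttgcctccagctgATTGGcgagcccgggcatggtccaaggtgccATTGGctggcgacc
Mvd: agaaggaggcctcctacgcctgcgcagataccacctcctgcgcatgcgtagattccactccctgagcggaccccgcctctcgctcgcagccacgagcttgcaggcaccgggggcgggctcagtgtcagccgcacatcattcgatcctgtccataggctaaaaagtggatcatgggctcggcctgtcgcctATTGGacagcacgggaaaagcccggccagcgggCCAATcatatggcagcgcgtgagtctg
Sc5d: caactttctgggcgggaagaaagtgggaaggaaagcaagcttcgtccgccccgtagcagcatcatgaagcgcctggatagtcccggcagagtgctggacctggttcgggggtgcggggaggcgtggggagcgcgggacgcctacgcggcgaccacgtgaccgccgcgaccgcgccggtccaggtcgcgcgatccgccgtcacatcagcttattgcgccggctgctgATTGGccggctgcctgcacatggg
Insig1: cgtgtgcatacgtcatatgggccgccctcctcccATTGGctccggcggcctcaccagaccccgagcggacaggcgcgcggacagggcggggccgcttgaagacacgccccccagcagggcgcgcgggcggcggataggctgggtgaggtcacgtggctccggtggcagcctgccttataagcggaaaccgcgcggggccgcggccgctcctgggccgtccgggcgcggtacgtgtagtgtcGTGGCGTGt
Hmgcs1 has 1 sterol core and 3 CCAAT boxes, Acat2 has 2 sterol cores and no CCAAT box, and Insig1 has 1 of each. Idi1 and Mvd have 2 CCAAT boxes each and Sc5d has 1, with no sterol core in the window. Windows were found for 31 members, 17 of the sterol arm and 14 of the fatty acid arm. For the 6 members with several windows a match in any 1 window counted, while the percentages are shares of single windows. The CCAAT box was present in 16 of 17 sterol arm genes and 9 of 14 fatty acid arm genes, against 33.8% of all 32851 windows. The sterol core was present in 3 of 17 and 2 of 14 against 5.29%, and the E box CACGTG, a site of many factors, in 4 of 17 and 2 of 14 against 6.02%. The androgen receptor hexamer TGTTCT was present in 3 of 17 and 3 of 14 against 16.1%, and the full palindromic androgen response element in 0 of 17 and 0 of 14 against 0.00913%. Both strands were searched for each, and every full element also holds the hexamer. These matches are descriptions of letters in a short window.

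Libraries held 8342000 to 38101526 counted reads, and the wild type testosterone group was the shallowest, with a median of 8845274. Levels below are in CPM, reads of a gene scaled to a common library total with TMM factors, which correct for shifts in library composition. Log2 differences, standard errors (SE) and p-values come from 1 edgeR quasi-likelihood fit over all 20 libraries, with Benjamini-Hochberg adjustment over the 15549 genes, and a gene is said to rise or fall where its adjusted p was below 0.05. The androgen response was present in wild type. Odc1, an ornithine decarboxylase long known to respond to androgen in mouse kidney, had a mean of 206 CPM with vehicle and 1508 with testosterone, while ARLmon kidneys had 202 and 188. Kap, the kidney androgen-regulated protein, went from 14784 to 39432 CPM in wild type and was at 8176 and 6444 in ARLmon. Proximal tubule markers were present in every library, with a summed level of 8361 to 14125 CPM over 8 genes. One library stood apart in another marker list. Adrenal cortex markers summed to 42.1 CPM in the ARLmon vehicle library GC078620 and to 5.09 to 10.01 CPM in the other 19, and Cyp21a1, a hydroxylase of adrenal steroid synthesis, was at 11.3 CPM there and at 0 to 0.0747 in the rest. Between genotypes under testosterone, 3 of 6 markers of other nephron segments were higher in ARLmon, and of 5 tested leukocyte markers 3 were higher and 1 lower. Of 8 proximal tubule markers 1 was higher and 1 lower, and of 4 hepatocyte genes 1 was higher and 2 were lower. In wild type with testosterone 2 of the 6 other nephron markers were lower, 1 proximal tubule marker was higher and 1 lower, 1 leukocyte marker was higher, and 1 hepatocyte gene was higher and 2 were lower. Between the vehicle groups 2 proximal tubule markers and 2 hepatocyte genes were lower in ARLmon and 1 of the other nephron markers was higher. Of all tested genes 31.1%, 15.7% and 4.37% were called in these comparisons, in the order given. The part of any of these marker differences in the results was not tested. Since whole kidney was measured, fewer cells of a type and less RNA per cell cannot be told apart.

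Testosterone raised a small set of sterol synthesis enzymes in wild type kidney, most of all the early mevalonate step Hmgcs1 and the isoprenoid isomerase Idi1, and left the middle of the pathway without a call. Of 21 sterol members 6 rose (Hmgcs1, Idi1, Acat2, Mvd, Sc5d and Dhcr7), 1 fell (Pmvk) and 14 did not pass. Of all tested genes 15.7% were called in this comparison, 9.36% higher and 6.36% lower. The median log2 change of the sterol arm was 0.08, against -0.03 over all tested genes. In the fatty acid arm 3 of 19 rose (Me1, Lpin1 and Acss2), 1 fell (Fads1) and 15 did not pass, with a median of 0.13. Groups did not overlap for 7 sterol and 4 fatty acid members, against 12.6% of all genes. When library size alone set the scale, the median of all genes moved to -0.18, and the split changed to 4 sterol members higher and 5 lower, and 3 fatty acid members higher and 3 lower. The 4 sterol members still higher were Acat2, Hmgcs1, Idi1 and Sc5d, at 0.62, 1.21, 1.88 and 0.29. The authors' deposited log2 values gave 3 higher and 4 lower in the sterol arm and 2 higher and 3 lower in the fatty acid arm.

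In ARLmon kidney no member passed. The edgeR fit called 0 of 21 sterol and 0 of 19 fatty acid members with testosterone, where 0% of all tested genes were called. The smallest adjusted p of any member was 0.774. At an unadjusted p below 0.05 there were 2 sterol members, Hmgcs1 and Sqle, and 0 fatty acid members, beside 813 of all 15549 tested genes. DESeq2, limma-voom and limma on the deposited log2 values also called 0 members. The medians were 0.11 and 0.15, against 0.01 over all tested genes, and 16 of 21 and 16 of 19 values were above 0. The members were not tested as a set, and the share of all genes above 0 was not counted. Sqle was the only member whose 2 ARLmon groups did not overlap, in a comparison where 0.778% of all genes did not.

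With testosterone on board the genotypes differed in both arms. ARLmon kidneys had 7 sterol members lower than wild type (Hmgcs1, Idi1, Acat2, Mvd, Sqle, Sc5d and Dhcr7) and 3 higher (Pmvk, Fdft1 and Srebf2), out of 21. In the fatty acid arm 7 of 19 were higher (Elovl6, Scd1, Thrsp, Acacb, Fads1, Elovl5 and Dgat1) and 5 lower (Me1, Acss2, Lpin1, Mlxipl and Fads2). Of all tested genes 31.1% were called in this comparison, 15.6% higher and 15.5% lower. The medians were -0.06 for the sterol arm and 0.34 for the fatty acid arm, against 0.04 over all genes. Groups did not overlap for 8 members in each arm, against 22.5% of all genes. With library size as the only scale the median of all genes was 0.28, and the counts became 10 sterol members higher and 4 lower, and 12 fatty acid members higher and 2 lower. The deposited log2 values gave 9 and 4, and 11 and 2. The members lower in ARLmon under every one of these scales were Hmgcs1, Idi1, Acat2, Mvd, Me1 and Acss2.

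Between the vehicle groups, in castrated mice without testosterone, few members differed. Sqle was the 1 sterol member called and was lower in ARLmon, and in the fatty acid arm Elovl6 was higher while Me1 and Acss2 were lower. Of all tested genes 4.37% were called, 1.99% higher and 2.38% lower. The medians were 0.00 and 0.02 beside 0.00 over all genes. Groups did not overlap for 1 sterol and 3 fatty acid members, against 4.58% of all genes. This comparison shares its libraries with the 2 testosterone comparisons, so the values are given side by side and not as independent results.

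**Figure D1:**
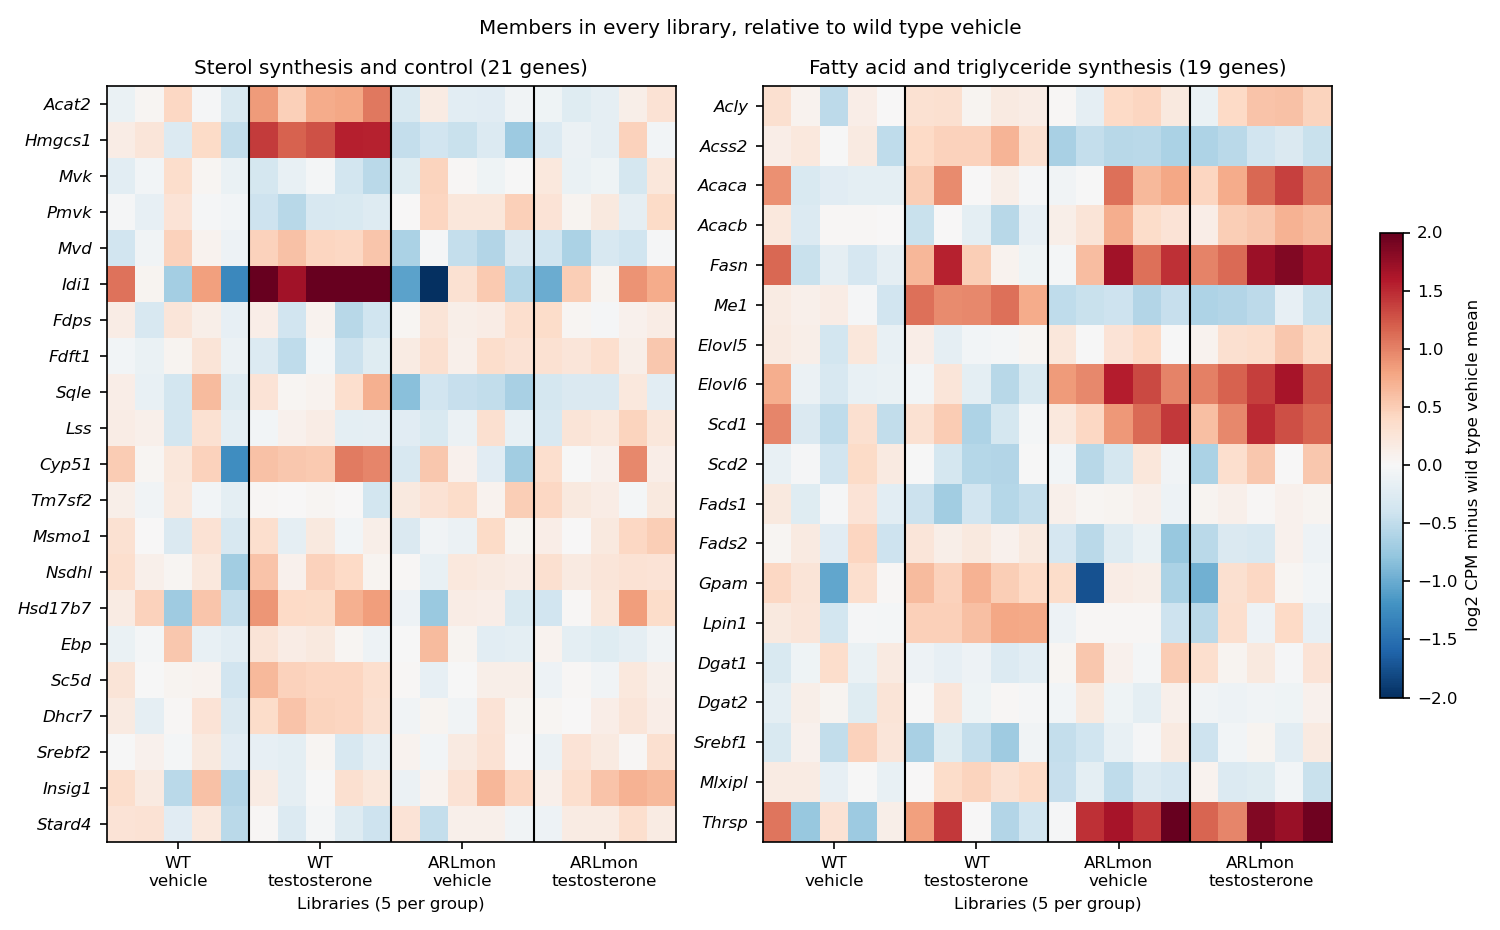
Level of each of the 40 members in each of the 20 libraries, as log2 CPM minus the member's mean in the wild type vehicle group (colour scale in log2 units), with members in rows by arm and libraries in columns by group. Hmgcs1, Idi1 and Me1 are high in the 5 wild type testosterone libraries, and Elovl6 is high in the 10 ARLmon libraries.

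**Figure D2:**
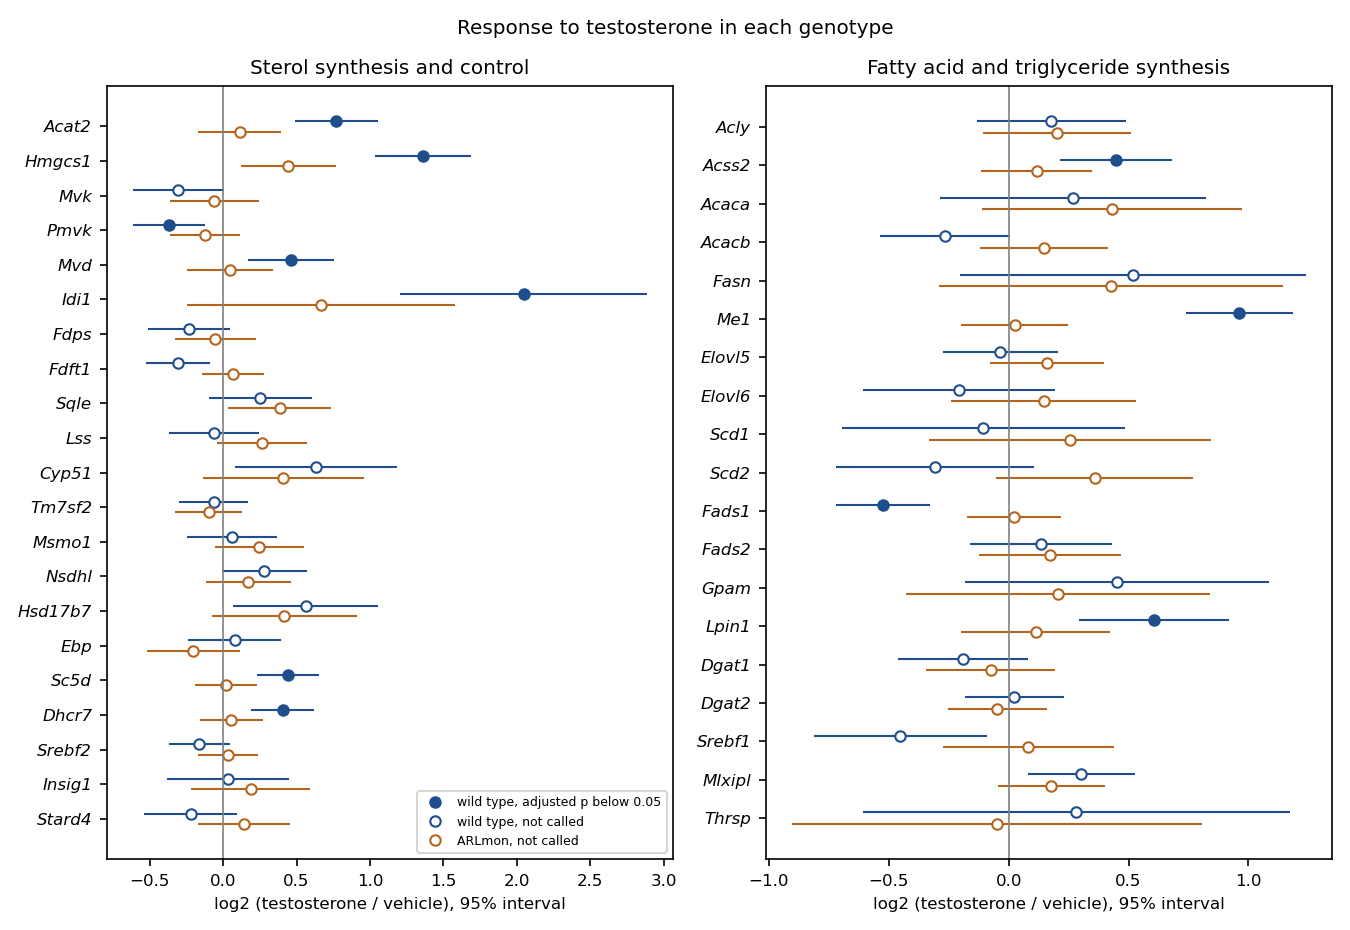
Fitted log2 difference between testosterone and vehicle for all 40 members with 95% confidence intervals, by arm, in wild type (blue) and ARLmon (orange), with filled points where the adjusted p was below 0.05. No point is filled for testosterone in ARLmon, where the largest value is Idi1 at 0.67.

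At the first steps of the mevalonate route Hmgcs1 and Acat2 rose with testosterone in wild type and were lower in ARLmon under testosterone. Hmgcs1 (chromosome 13, 119690379 to 119708260, GRCm38, GENCODE M21) makes HMG-CoA, the substrate of the committed step of the pathway. In wild type vehicle libraries it was at 410.2, 438, 309, 486 and 265 CPM, and with testosterone at 982, 844, 901, 1089 and 1085. Every testosterone library was above every vehicle library. It rose by 1.36 ± 0.16 (SE) on the log2 scale, 2.57-fold (adjusted p = 2.16e-06). The ARLmon vehicle libraries held 268, 285, 274, 308 and 225 CPM and the ARLmon testosterone libraries 307, 342, 329, 515 and 357. These groups overlapped, with 1 ARLmon testosterone library, GC078615, above the rest, and no ARLmon library reached the wild type testosterone range. The ARLmon difference with testosterone was 0.44 (95% interval 0.12 to 0.77, adjusted p = 0.774). Under testosterone ARLmon was lower by a log2 difference of -1.41 ± 0.16 (adjusted p = 6.78e-07). The testosterone effect itself differed between genotypes by -0.92 ± 0.22 (adjusted p = 0.0151), in a test where 4.77% of all genes were called, 1.42% higher and 3.34% lower, and Hmgcs1 was the 1 sterol member called in it. In the deposited log2 values that difference was -0.78 with an adjusted p of 0.0533. Between the vehicle groups Hmgcs1 was at -0.49 (adjusted p = 0.0813), and this passed without GC078604, GC078606 or GC078615 (adjusted p from 0.0219 to 0.0426).

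Acat2 (chromosome 17, 12942890 to 12960747) is the thiolase that joins acetyl-CoA units ahead of Hmgcs1. Wild type vehicle libraries held 53.03, 60.1, 78.1, 57.3 and 47.4 CPM and wild type testosterone libraries 105, 81.4, 97.9, 99.7 and 121. The groups did not overlap, though the lowest testosterone library was just above the highest vehicle library. Acat2 rose by 0.77 ± 0.14 on the log2 scale (adjusted p = 0.000361). ARLmon libraries held 47.1, 65.6, 50.2, 49.9 and 55.6 CPM with vehicle and 54.8, 49.2, 51.6, 63.5 and 71.2 with testosterone, which overlapped each other and the wild type vehicle range. Under testosterone the genotype difference was -0.80 ± 0.14 (adjusted p = 0.000125). The difference between the testosterone effects was -0.66 with an adjusted p of 0.0531, which passed without GC078604, GC078608, GC078615 or GC078616 (0.00856 to 0.0476). Of the 31-base words in Acat2 transcripts, 43.7% also occur in its near copy Acat3, so the split of reads between the 2 genes is uncertain.

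Mevalonate is then phosphorylated by Mvk and Pmvk and decarboxylated by Mvd. Mvd was at 37.6, 46.7, 67.6, 51.5 and 45.6 CPM in wild type vehicle libraries and 67.5, 73.6, 65.8, 65.1 and 71.4 in wild type testosterone libraries. One vehicle library, at the level of the testosterone group, made the groups overlap. Mvd rose by 0.46 ± 0.14 (adjusted p = 0.0280), a call that was lost without GC078602, GC078603, GC078606, GC078608 or GC078611 (adjusted p from 0.0548 to 0.0704) and with library size as the only scale (0.0831). ARLmon libraries held 31.4, 48.2, 35.04, 32.5 and 39.9 CPM with vehicle and 37.1, 31.6, 39.2, 37.2 and 48.2 with testosterone. All 5 of the latter lay below all 5 wild type testosterone libraries, with a log2 difference of -0.83 ± 0.14 (adjusted p = 0.000128). Between the vehicle groups Mvd was at -0.42 (adjusted p = 0.103), which passed without GC078602 or GC078618 (0.0335 to 0.0411). Pmvk went the other way. It was at 18.3, 16.6, 22.6, 18.5 and 18.1 CPM with vehicle and 14.1, 12.8, 14.97, 15.2 and 15.7 with testosterone in wild type, where the groups did not overlap, and it fell by 0.37 ± 0.12 (adjusted p = 0.0368). That call was lost without any 1 of GC078604, GC078605, GC078607, GC078608, GC078609 or GC078610 (0.0502 to 0.103). ARLmon testosterone libraries held 22.7, 19.4, 21.5, 16.5 and 24.4 CPM, all above the wild type testosterone libraries, and the difference was 0.52 ± 0.12 (adjusted p = 0.00227). Mvk ran from 9.10 to 18.04 CPM over the 20 libraries and passed in no comparison.

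Idi1 (chromosome 13, 8885501 to 8892451) interconverts the 2 isoprenoid building blocks and is the least abundant member, with 5 to 156 reads per library. It was at 4.16, 2.03, 1.22, 3.45 and 0.796 CPM in wild type vehicle libraries and 13.04, 6.28, 11.7, 11.5 and 7.82 in wild type testosterone libraries. All testosterone libraries were above all vehicle libraries, and the vehicle libraries spread widely among themselves. The rise was 2.04 ± 0.40 on the log2 scale, 4.13-fold, the largest of the 40 members in this comparison (adjusted p = 0.00111). ARLmon libraries held 0.934, 0.427, 2.42, 2.81 and 1.32 CPM with vehicle and 0.977, 2.75, 2.02, 3.65 and 3.26 with testosterone, a difference of 0.67 with an interval from -0.25 to 1.58. Under testosterone ARLmon was lower by a log2 difference of -1.96 ± 0.41 (adjusted p = 0.000982). The effects of testosterone in the genotypes differed by -1.38 ± 0.60, which did not pass (adjusted p = 0.236). Idi1 shares 27.1% of its 31-base words with other annotated genes, most of them with Gm13502.

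**Figure D3:**
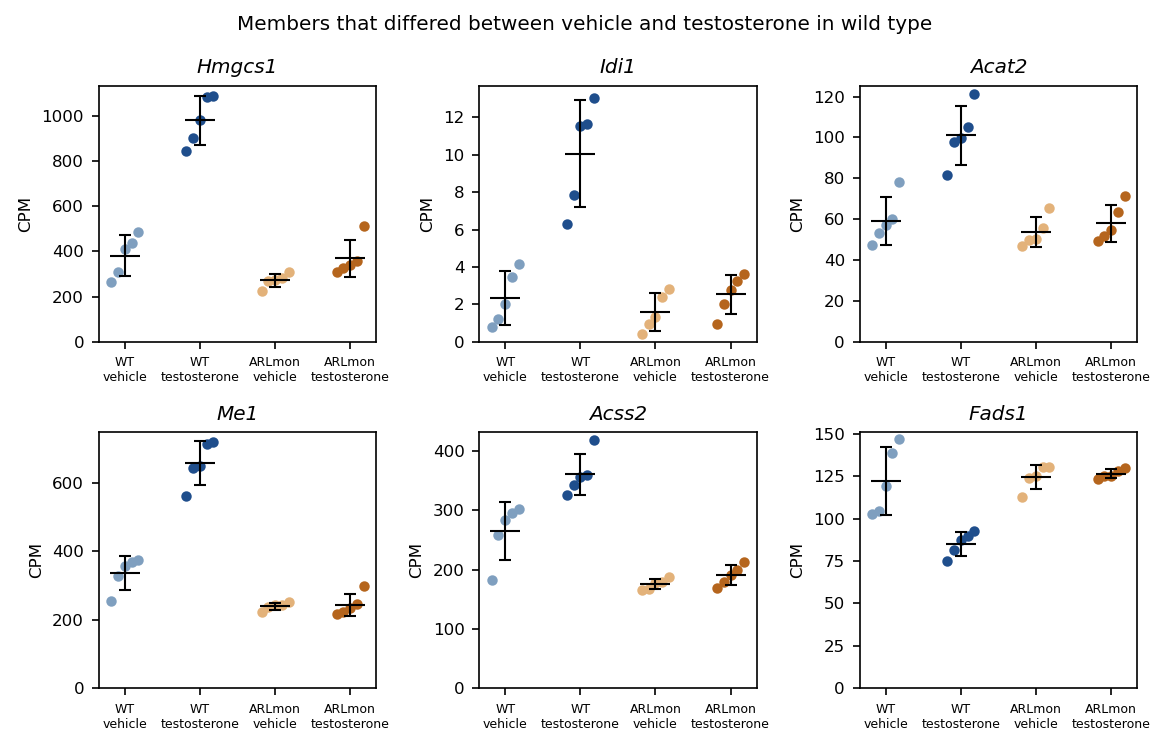
CPM of 6 members called between vehicle and testosterone in wild type, 1 point per library (5 per group) in the 4 groups, with the group mean and its SD in black. For Hmgcs1, Idi1 and Me1 the wild type testosterone points lie above all points of the other 3 groups.

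The farnesyl and squalene steps did not follow Hmgcs1 and Idi1. Fdps, which makes farnesyl diphosphate, had means of 18.2, 15.7, 20.5 and 19.8 CPM in wild type vehicle, wild type testosterone, ARLmon vehicle and ARLmon testosterone, and its changes passed in no comparison. The nearest was ARLmon against wild type under testosterone at 0.34 (adjusted p = 0.0603), which passed without GC078607 or GC078609 (0.0233 and 0.0322). Fdps shares 27.9% of its 31-base words with other annotated genes, most of them with Gm43738, so its reads are uncertain. Fdft1, squalene synthase, was at 22.7, 21.4, 24.5, 28.2 and 21.8 CPM with vehicle and 19.6, 16.5, 22.9, 17.5 and 19.9 with testosterone in wild type, and the testosterone libraries tended low with some overlap. Its change of -0.31 ± 0.11 did not pass (adjusted p = 0.0522), and it passed without GC078603, GC078609, GC078615 or GC078616 (0.0241 to 0.0464). ARLmon testosterone libraries held 29.1, 27.9, 29.97, 25.6 and 34.3 CPM, above every wild type testosterone library, and Fdft1 was higher by 0.61 ± 0.11 (adjusted p = 0.000151). Fdft1 overlaps exons of Ctsb on the opposite strand and shares 31.9% of its 31-base words with other genes, and the strand setting of the counting is not given in the sources used here, so reads of the 2 genes may be mixed.

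Sqle, squalene epoxidase, a rate-limiting oxygenase of the later pathway, was at 64.8, 53.5, 45.97, 91.7 and 49.6 CPM in wild type vehicle libraries and 33.1, 45.4, 43.1, 41.9 and 37.6 in ARLmon vehicle libraries. Every ARLmon library was below the lowest wild type library, the highest of them by a small margin. The difference was -0.61 ± 0.17 (adjusted p = 0.0427). It was lost in 11 of the 20 fits that left out 1 library (GC078602, GC078605, GC078607, GC078610, GC078613, GC078614, GC078616, GC078617, GC078619, GC078620 or GC078621), with adjusted p from 0.0529 to 0.170, the highest without GC078605. With testosterone, wild type libraries held 71.2, 60.5, 62.3, 74.8 and 96.5 CPM and ARLmon libraries 46.2, 48.6, 48.3, 68.2 and 50.9, which overlapped, and ARLmon was lower by a log2 difference of -0.48 ± 0.17 (adjusted p = 0.0360). That call was lost without GC078607, GC078610, GC078611, GC078612, GC078613, GC078614 or GC078616 (0.0540 to 0.125). In wild type the testosterone difference of 0.25 did not pass (adjusted p = 0.338), but was 0.45 and passed without GC078605 (0.0411). Lss, which closes squalene epoxide into lanosterol, had group means from 22.8 to 27.4 CPM and passed nowhere, and its highest vehicle library in ARLmon, at 30.2 CPM, was GC078620, the library with adrenal markers. GC078620 was also highest in that group for Hmgcs1, Idi1, Fdft1, Msmo1, Sc5d, Dhcr7, Srebf2 and Insig1, and not for the other sterol members. The part of adrenal tissue in these levels was not tested. Exons of Lss overlap 4930483K19Rik on the opposite strand.

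Among the enzymes that turn lanosterol into cholesterol, 2 late ones rose in wild type. Sc5d, the sterol desaturase, was at 42.7, 35.6, 37.2, 37.5 and 27.3 CPM with vehicle and 55.7, 49.2, 47.8, 48.2 and 44.9 with testosterone. Dhcr7, the reductase that yields cholesterol, was at 25.02, 19.6, 22.6, 26.8 and 18.2 CPM with vehicle and 28.5, 33.1, 30.1, 29.9 and 27.7 with testosterone. Both genes had every testosterone library above every vehicle library by a small margin. Sc5d rose by 0.44 ± 0.10 (adjusted p = 0.00440) and Dhcr7 by 0.41 ± 0.10 (adjusted p = 0.00888). In the deposited log2 values neither passed (adjusted p = 0.152 and 0.0733). ARLmon means with vehicle and testosterone were 36.3 and 36.7 CPM for Sc5d, and 23.1 and 24.01 CPM for Dhcr7. Under testosterone ARLmon was lower in both, by log2 differences of -0.42 and -0.31 (adjusted p = 0.00353 and 0.0254). The Dhcr7 call was lost without GC078608, GC078612 or GC078613 (0.0526 to 0.0649). With library size as the only scale both genotype calls were lost (0.175 for Sc5d and 0.622 for Dhcr7). In the deposited log2 values both were lost too (0.329 and 0.597). The difference between testosterone effects was -0.42 for Sc5d (adjusted p = 0.105), which passed without GC078602 (0.0493), and -0.35 for Dhcr7 (adjusted p = 0.215).

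The remaining 6 enzymes of this stretch passed in no comparison. Cyp51, the lanosterol demethylase, was at 265, 191, 217, 257 and 78.8 CPM with vehicle and 279, 271, 266, 384 and 365 with testosterone in wild type. Its groups did not overlap, 1 vehicle library was far below the others, and the change of 0.63 ± 0.26 did not pass (adjusted p = 0.112). Hsd17b7, a sterol ketone reductase, stood at 0.56 ± 0.24 in wild type with testosterone (adjusted p = 0.117). Tm7sf2, Msmo1, Nsdhl and Ebp had values in wild type from -0.06 to 0.28 on the log2 scale. Cyp51 and Tm7sf2 overlap exons of Akap9 and Vps51, so their reads are also uncertain.

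The controllers of the sterol arm moved little. Srebf2 was at 95.99, 103, 93.5, 110.0 and 82.5 CPM with vehicle and 86.2, 84.4, 99.2, 77.7 and 85.6 with testosterone in wild type, overlapping, with a change of -0.16 ± 0.10 (adjusted p = 0.292). ARLmon libraries held 101, 93.2, 109.8, 118 and 98.1 CPM with vehicle and 88.7, 116, 109, 97.5 and 120.3 with testosterone. Under testosterone it was higher in ARLmon by 0.30 ± 0.10 (adjusted p = 0.0275) with overlapping groups, a call lost without GC078607, GC078608, GC078610, GC078611, GC078613, GC078614 or GC078616 (0.0506 to 0.0792). The gene encodes the master factor of the arm, and its messenger level need not follow the cleavage that activates the protein. Insig1 was at 29.4, 26.1, 15.8, 34.5 and 15.4, then 25.7, 20.3, 22.9, 28.8 and 27.01 CPM in wild type vehicle and testosterone libraries. In ARLmon it was at 21.2, 24.1, 28.1, 36.6 and 30.98, then 24.6, 29.1, 34.00, 37.1 and 35.9 CPM. All 4 groups overlapped their neighbours, and the wild type change was 0.03 (95% interval -0.38 to 0.45, adjusted p = 0.936). Stard4, a carrier of cholesterol inside cells, had group means of 108, 93.2, 106 and 118 CPM and passed in no comparison.

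Of 20 other genes of sterol handling, listed with earlier results known, 3 rose and 2 fell in wild type with testosterone, where 15.7% of all genes were called, and 0 were called in ARLmon. Rnf145, a ubiquitin ligase of sterol sensing, went from a mean of 99.4 to 162 CPM and rose by 0.71 (adjusted p = 1.31e-05). Npc1, which exports cholesterol from lysosomes, and Erlin2, a membrane protein that helps degrade sterol enzymes, rose by 0.36 and 0.39. Abca1, the cholesterol exporter, fell by 0.73. Under testosterone, where 31.1% of all genes were called, ARLmon kidneys had 2 of the 20 higher and 6 lower, with Rnf145 at -1.03, Scap, the escort of the sterol factor, at -0.48, and Scarb1 and Mylip, an HDL receptor and a receptor-degrading ligase, at 0.47 and 0.57. With vehicle Rnf145 was lower in ARLmon by a log2 difference of -0.57. The list median was 0.08 in wild type with testosterone and -0.20 between genotypes under testosterone, beside -0.03 and 0.04 over all genes.

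Of 3 enzymes that supply carbon and NADPH to fatty acid synthesis, Me1 and Acss2 rose with testosterone in wild type and were lower in ARLmon with either treatment, and Acly passed nowhere. Me1 (chromosome 9, 86581371 to 86695953), the malic enzyme that makes NADPH, was at 374, 358, 368, 327 and 256.01 CPM in wild type vehicle libraries and 718, 644, 648, 712 and 559.7 in wild type testosterone libraries. ARLmon libraries held 236, 244, 252, 223 and 243 CPM with vehicle and 218, 222, 233, 299 and 246 with testosterone. The wild type testosterone libraries stood above all others, and ARLmon vehicle libraries were all below the wild type vehicle range. Me1 rose in wild type by 0.96 ± 0.11, 1.95-fold (adjusted p = 1.29e-06), and in ARLmon its difference was 0.02 (95% interval -0.20 to 0.25). The effects differed by -0.94 ± 0.15 (adjusted p = 0.000418). ARLmon was lower by log2 differences of -0.49 ± 0.11 with vehicle (adjusted p = 0.00796) and -1.43 ± 0.11 with testosterone (adjusted p = 1.73e-09). Of the 31-base words of Me1, 36.9% occur in other annotated genes, most in Gm7049, and its exons overlap A330041J22Rik on the opposite strand, so its reads are uncertain.

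Acss2 (chromosome 2, 155517948 to 155585724), which makes acetyl-CoA from acetate, followed a like order. Wild type libraries held 284, 303, 258, 296 and 183 CPM with vehicle and 343, 360.3, 357, 419 and 327 with testosterone, without overlap. ARLmon libraries held 166, 188, 178, 179.5 and 168 CPM with vehicle and 169, 180.1, 199, 213 and 191 with testosterone, and only the lowest wild type vehicle library reached into their range. Acss2 rose in wild type by 0.45 ± 0.11 (adjusted p = 0.00781). That call was lost with the groups compared alone (0.0512) and in the deposited log2 values (0.0526). The ARLmon differences were -0.59 ± 0.11 with vehicle (adjusted p = 0.00245) and -0.92 ± 0.11 with testosterone (adjusted p = 1.95e-06). The difference between testosterone effects was -0.33 (adjusted p = 0.295) and did not pass. Acly, which makes acetyl-CoA from citrate, had group means from 211 to 272 CPM and passed nowhere. Exons of Acss2 overlap Ggt7 and Gss on the opposite strand.

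The core synthesis enzymes spread widely within groups, and only Acacb passed. Fasn, fatty acid synthase, was at 465, 153, 185, 167 and 184 CPM in wild type vehicle libraries, 332, 611, 295, 220.4 and 197 in wild type testosterone libraries, 205, 321, 668, 451 and 579 in ARLmon vehicle libraries and 416, 459, 684, 759 and 671 in ARLmon testosterone libraries. One wild type vehicle library, GC078602, stood far above the others of its group. The genotype difference was 0.95 ± 0.35 with vehicle (adjusted p = 0.140) and 0.85 ± 0.35 with testosterone (adjusted p = 0.0676), neither of which passed. Without GC078602 they were 1.37 (adjusted p = 0.0163) and 0.85 (0.0332), the testosterone change in wild type was 0.94 (0.0489), and the genotype difference under testosterone also passed without GC078608 (0.0124). Acaca, the carboxylase that makes malonyl-CoA for synthesis, stood at 0.64 between genotypes under testosterone (adjusted p = 0.0726), and passed without GC078602, GC078608 or GC078612 (0.0264 to 0.0462). Acaca shares 33.5% of its 31-base words with other annotated genes, most of them with Gm5182, so its reads are uncertain. Acacb, the mitochondrial carboxylase that restrains fatty acid burning, was at 46.7, 63.7, 55.6, 43.1 and 57.1 CPM in wild type and 69.5, 89.5, 92.3, 103 and 98.9 in ARLmon testosterone libraries. All ARLmon values were above all wild type values here, and the difference was 0.77 ± 0.13 (adjusted p = 0.000120).

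Of 6 elongases and desaturases, 4 were called higher in ARLmon under testosterone (Elovl6, Scd1, Fads1 and Elovl5) and 1 lower (Fads2), and with vehicle Elovl6 was the 1 called. Of all tested genes 31.1% were called under testosterone, 15.6% higher and 15.5% lower, and 4.37% with vehicle. Elovl6 (chromosome 3, 129532355 to 129638495), which lengthens palmitate, was at 54.2, 30.2, 26.2, 29.7 and 30.03 CPM in wild type vehicle libraries and 31.5, 39.02, 28.7, 22.3 and 26.6 in wild type testosterone libraries. ARLmon libraries held 59.6, 64.1, 97.7, 81.8 and 65.6 CPM with vehicle and 66.01, 74.4, 85.6, 103 and 79.1 with testosterone. All 10 ARLmon libraries lay above all 10 wild type libraries, and in wild type vehicle only GC078602 came near. The differences were 1.11 ± 0.19 with vehicle (2.17-fold, adjusted p = 0.000894) and 1.47 ± 0.19 with testosterone (2.76-fold, adjusted p = 5.85e-06), and testosterone changed it in neither genotype at this threshold (adjusted p = 0.517 and 0.818). Scd1, the main desaturase of stearate, was at 718, 822, 379, 456 and 562 CPM in wild type and 882, 1126, 1633, 1413 and 1298 in ARLmon testosterone libraries, which did not overlap. It was higher in ARLmon by 1.11 ± 0.29 (adjusted p = 0.00543). With vehicle the difference was 0.75 (adjusted p = 0.153), and 1.08 without GC078602 (0.0206).

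Fads1 (chromosome 19, 10182888 to 10196877), a desaturase of polyunsaturated fatty acids, was the 1 fatty acid member that fell with testosterone in wild type. It was at 139, 103, 119, 147 and 104 CPM with vehicle and 89.6, 75.1, 92.5, 81.3 and 87.5 with testosterone, and the groups did not overlap. ARLmon libraries held 130.1, 124, 125, 130.2 and 113 CPM with vehicle and 125, 129.9, 123, 128 and 125 with testosterone, which is within the wild type vehicle range and tightly grouped. Fads1 fell by 0.52 ± 0.09 (adjusted p = 0.000452) in wild type and was at 0.02 in ARLmon, and the effects differed by 0.55 ± 0.13 (adjusted p = 0.0165). Under testosterone it was higher in ARLmon by 0.57 ± 0.09 (adjusted p = 9.56e-05). Its neighbour in the pathway, Fads2, was lower in ARLmon under testosterone by a log2 difference of -0.38 ± 0.14 (adjusted p = 0.0487), with overlapping groups. That call was lost in 12 of the 20 fits that left out 1 library (GC078602, GC078607, GC078608, GC078609, GC078610, GC078611, GC078612, GC078613, GC078614, GC078616, GC078617 or GC078619), with adjusted p from 0.0543 to 0.126. With vehicle the Fads2 difference of -0.42 (adjusted p = 0.107) passed without GC078604 or GC078606 (0.0369 and 0.0491). Elovl5, the elongase that works with them, was higher in ARLmon under testosterone by 0.36 ± 0.11 (adjusted p = 0.0219), and not without GC078608 or GC078615 (0.0576 and 0.0581). Scd2 stood at 0.50 there (adjusted p = 0.0586) and passed without GC078604, GC078607, GC078611 or GC078612 (0.00803 to 0.0494).

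In triglyceride assembly Lpin1, the phosphatase that makes diacylglycerol, was at 78.3, 81.3, 53.1, 67.9 and 66.8 CPM with vehicle and 95.6, 95.5, 104, 117 and 116 with testosterone in wild type. All testosterone libraries were above all vehicle libraries. It rose by 0.61 ± 0.15 (adjusted p = 0.00747). ARLmon libraries held 64.04, 69.6, 69.7, 70.05 and 51.5 CPM with vehicle and 47.4, 86.9, 64.3, 90.4 and 61.4 with testosterone, the latter spread widely but all below wild type with testosterone, and the genotype difference was -0.59 ± 0.15 (adjusted p = 0.00499). This genotype call was lost with library size as the only scale (0.0667) and in the deposited log2 values (0.0662). Dgat1, which completes triglyceride, was higher in ARLmon under testosterone by 0.34 ± 0.13 (adjusted p = 0.0497), a call lost in 14 of the 20 fits that left out 1 library (GC078603, GC078605, GC078606, GC078607, GC078608, GC078609, GC078610, GC078611, GC078612, GC078613, GC078614, GC078616, GC078617 or GC078619), with adjusted p from 0.0509 to 0.114. Dgat2 and Gpam, the other acyltransferases, passed nowhere. Dgat2 had group means from 185 to 197 CPM, and single Gpam libraries ran from 17.4 to 94.6 CPM.

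Of the 2 transcription factors of this arm, Mlxipl was called lower in ARLmon under testosterone and Srebf1 passed in no comparison. Srebf1 was at 48.3, 63.2, 42.4, 82.1 and 70.4 CPM with vehicle and 37.9, 50.1, 42.8, 36.4 and 56.6 with testosterone in wild type, and at 42.7, 45.2, 53.5, 58.6 and 67.3 and 44.8, 57.2, 62.1, 51.5 and 67.6 in ARLmon. All groups overlapped, and its exons overlap Rai1 on the opposite strand. Its wild type difference of -0.45 ± 0.17 did not pass (adjusted p = 0.0833), and did without GC078602, GC078604 or GC078611 (0.0261 to 0.0499). Mlxipl, the carbohydrate-responsive factor, was at 205, 204, 163, 182 and 165 CPM with vehicle and 183, 235, 248, 225 and 241 with testosterone in wild type, and at 133, 159, 129, 151 and 145 and 193, 152, 155, 177 and 135 in ARLmon. The vehicle groups of the 2 genotypes did not overlap and the testosterone groups did. Mlxipl stood at 0.30 in wild type with testosterone (adjusted p = 0.0597) and passed without GC078602, GC078607 or GC078612 (0.0236 to 0.0462). Under testosterone ARLmon was lower by a log2 difference of -0.48 ± 0.11 (adjusted p = 0.00174). That call was lost with library size as the only scale (0.108) and in the deposited log2 values (0.0953). With vehicle it was at -0.36 (adjusted p = 0.0634) and passed without GC078604, GC078607 or GC078612 (0.0317 to 0.0484).

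Thrsp, a lipogenic nuclear protein abundant in fat, was called higher in ARLmon under testosterone and not with vehicle. The part of fat tissue in its level was not tested, and a fit with fat cell markers as a covariate is given below. Wild type libraries held 43.9, 12.4, 25.7, 12.7 and 22.7 CPM with vehicle and 36.9, 55.8, 21.1, 13.9 and 15.9 with testosterone. ARLmon libraries held 20.7, 58.04, 65.5, 56.8 and 124 CPM with vehicle and 47.2, 41.1, 75.6, 69.3 and 80.9 with testosterone, higher in most libraries but overlapping wild type. The difference was 1.47 ± 0.42 with vehicle (adjusted p = 0.0508), which passed without GC078602, GC078604, GC078608, GC078610 or GC078617 (0.0176 to 0.0496). With testosterone it was 1.14 ± 0.43 (adjusted p = 0.0469), a call lost in 10 of the 20 fits that left out 1 library (GC078606, GC078607, GC078609, GC078610, GC078611, GC078614, GC078615, GC078616, GC078619 or GC078620), with adjusted p from 0.0523 to 0.121. The 9 adipocyte markers summed to 161 to 636 CPM in wild type vehicle libraries, 154 to 479 in wild type testosterone, 242 to 985 in ARLmon vehicle and 389 to 641 in ARLmon testosterone libraries. All 9 were detected in every library and all 9 were higher in ARLmon under both treatments, with medians of 0.94 and 0.93. By edgeR 0 of them were called with vehicle and 2, Adipoq and Retn, with testosterone, beside 4.37% and 31.1% of all tested genes. With testosterone 2 of the 9 had positive log2 differences in each genotype and 0 were called in either.

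With the log2 of the summed adipocyte markers as a covariate, a fit added after the marker values had been seen, the fatty acid members called between genotypes under testosterone went from 12 to 7 and the sterol members from 10 to 9, while the share of all genes called went from 31.1% to 22.8%. Thrsp then stood at 0.30 (adjusted p = 0.576), Scd1 at 0.85 (0.0613), Fasn at 0.31 (0.556) and Acaca at 0.29 (0.496). Elovl6 stayed called at 1.30 (0.000166), as did Me1 at -1.36, Acss2 at -0.78, Acacb at 0.61, Fads1 at 0.68 and Hmgcs1 at -1.17. Lpin1, Dgat1 and Fads2 also lost their calls (0.0512, 0.328 and 0.384), as did Sqle and Dhcr7 (0.183 and 0.112), and Stard4 passed at 0.54 (0.0186). Between the vehicle groups the counts went from 3 to 1 and from 1 to 0, with 680 and then 405 of all tested genes called, leaving Elovl6 at 0.94 (0.0157), and Acss2 and Me1 had adjusted p of 0.0513 and 0.0777. The wild type testosterone counts stayed at 7 sterol and 4 fatty acid members. The markers themselves had positive log2 differences in ARLmon under both treatments, so this fit cannot separate marker level from genotype. The part of fat tissue in the genotype differences was not tested.

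**Figure D4:**
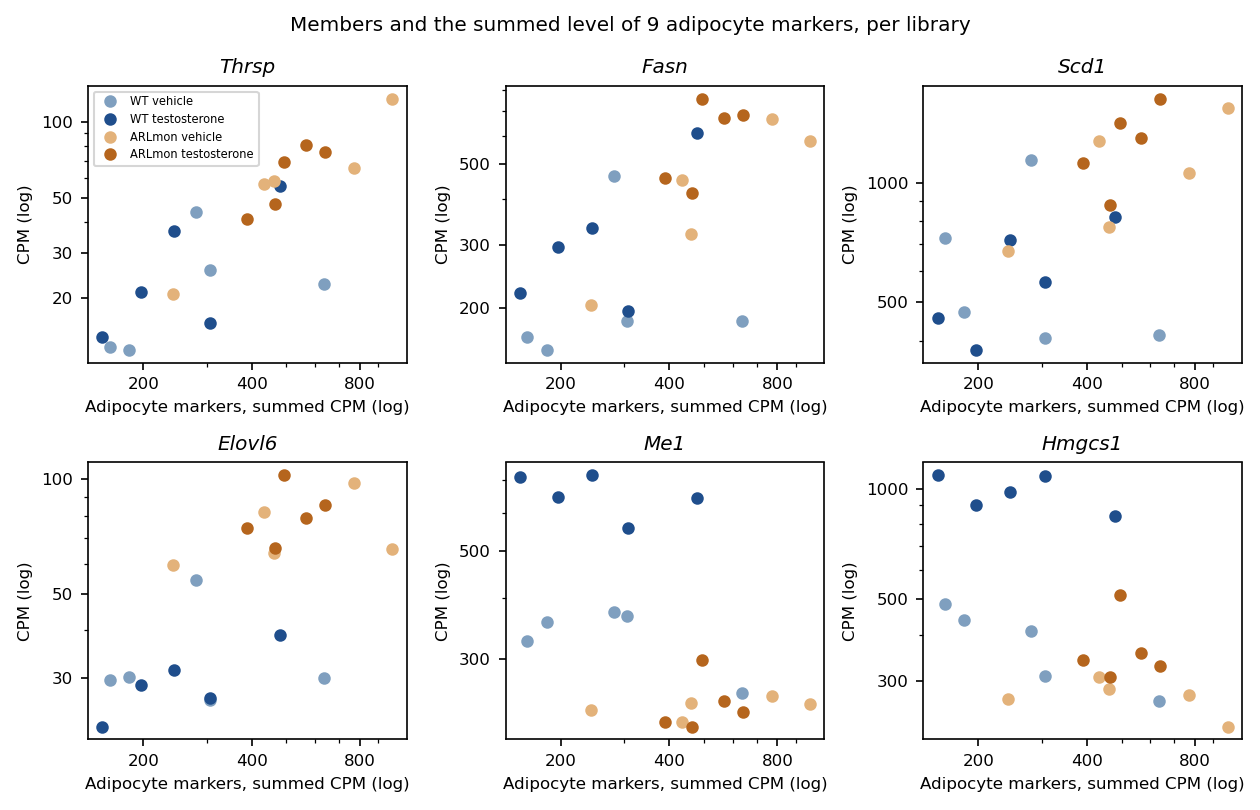
CPM of 6 members against the summed CPM of 9 adipocyte markers, both axes logarithmic, 1 point per library coloured by group. Thrsp is highest, at 124 CPM, in the library with the highest marker sum of 985 CPM, while the Me1 points of wild type with testosterone stay above the rest at any marker sum.

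**Figure D5:**
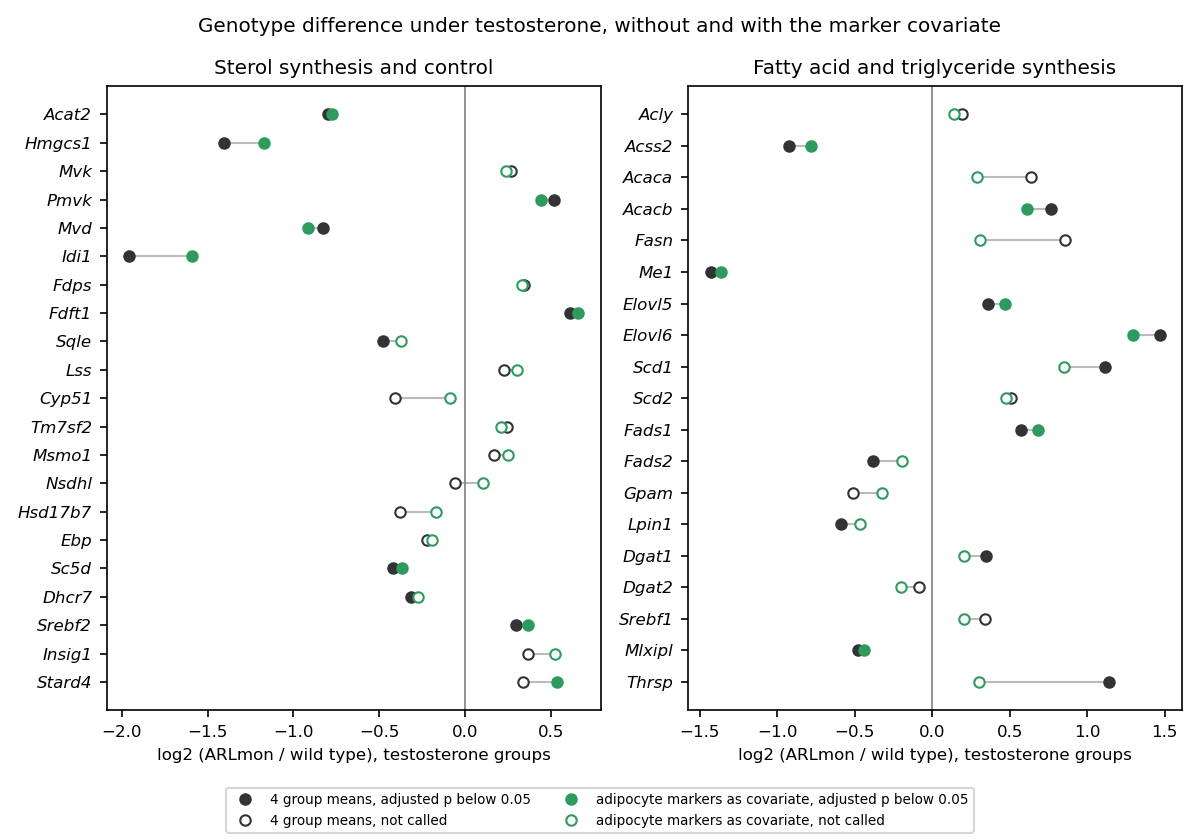
Log2 difference of ARLmon against wild type under testosterone for each member, fitted with 4 group means and again with the adipocyte marker covariate, filled where the adjusted p was below 0.05. Thrsp moves from 1.14 to 0.30, and Elovl6 from 1.47 to 1.30.

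Of 31 other genes of fatty acid metabolism, 30 were tested, and 5 rose and 3 fell in wild type with testosterone, where 15.7% of all genes were called, while 0 were called in ARLmon. Mlx, the partner of the Mlxipl factor, rose by 0.68 (adjusted p = 1.70e-06) and Hacd2, a dehydratase of elongation, by 0.74 (7.37e-06). Acsl1, which activates fatty acids, went from a mean of 503 to 217 CPM and fell by 1.21 (1.49e-05). Idh1, a cytosolic source of NADPH, went from 744 to 472 CPM and fell by 0.66 (0.000188). The testosterone effect differed between genotypes for 7 of the 30, beside 4.77% of all genes, with Mlx at -0.68, Acsl1 at 1.19, Hacd2 at -0.67 and Agpat3, an acyltransferase, at -0.44. Under testosterone 4 were higher and 8 lower in ARLmon, beside 31.1% of all genes called, among them Mogat1, a monoacylglycerol acyltransferase, at -2.33, and Elovl2, an elongase of polyunsaturated fatty acids, at 1.16. With vehicle 2 were lower, Mogat1 at -1.29 and Hacd2 at -0.43. The medians were 0.07 in wild type with testosterone and -0.09 between genotypes under testosterone.

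Per kilobase of exon, the members spanned a wide range of levels. In wild type with testosterone Hmgcs1 was at 213 CPM per kilobase, Me1 at 171 and Scd1 at 120.1. In wild type with vehicle the order was Scd1 at 129, Me1 at 87.5 and Hmgcs1 at 83.04, and in ARLmon with testosterone Scd1 at 259.6, Hmgcs1 at 80.5 and Me1 at 63.3. Idi1 was the lowest member in the wild type vehicle group at 0.665 CPM per kilobase, and Acaca was next at 1.71. These are levels, with exon lengths from GENCODE M21.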

How the data were processed

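The 40 members, the other gene lists and the markers were chosen with earlier results of these data known. Per the submitters' processing notes, FastQC 0.11.7, HISAT2, SAMtools 1.5, HTSeq 2.7.14 (as listed), DESeq2 and the build mm10 were used, with no settings. Per the labels' protocols the libraries came from a stranded poly(A) kit, and the strand setting of the counting is not given in the sources used here. The authors deposited 4 tables of raw counts per gene, each for 10 libraries, and 1 table of log2 values for 20550 genes whose normalization is not stated. The count tables held identical values where they shared a library and were joined into 24762 genes by 20 libraries. Values of 1713 genes absent from a library's table were set to 0. Column codes give the group but not the labels' replicate number.

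The counts went into a quasi-likelihood fit with 4 group means (edgeR 4.0.16 under R 4.3.3), after filterByExpr and TMM scaling, with 16 residual degrees of freedom before moderation. Contrasts were testosterone against vehicle in each genotype, ARLmon against wild type under each treatment, and the gap between the genotypes' testosterone effects. The steps were tested on simulated data. Alternatives were RLE factors, library size only, 2 other filters, DESeq2 1.42.0, limma-voom and limma 3.58.1 on the deposited log2 values, each pair of groups alone, the 10 most abundant genes left out, GC078604 and GC078618 left out together, and each library left out. A fit with adipocyte markers as a covariate was chosen after seeing the data. Values in every library are given, per arm and comparison, for at most 6 called members with the smallest p and for Srebf1, Srebf2, Insig1 and Mlxipl. A few other members, chosen after their values were seen, have them too: Cyp51, Sqle, Fasn, Scd1, Lpin1 and Thrsp. Of the other pathway lists at most 4 called genes per comparison are named, with Erlin2 and Elovl2 within that number. Shared 31-base words and exon overlaps came from GENCODE M21. Promoter windows were RefSeq's, without the bases after the start site.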

Additional observations from a re-analysis of the deposited data

Results flagged for a closer look

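In 11 of 160 sets of 5 libraries (40 members in 4 groups, 6.88%) the highest or lowest library lay past Dixon's limit of 0.71 for the gap over the range, where chance gives about 5% (1 in 20). Library GC078615, ARLmon with testosterone, stood high in 3 sterol enzymes. It held 515 CPM of Hmgcs1 where the other libraries of its group had 307 to 357, 68.2 CPM of Sqle where they had 46.2 to 50.9, and 361 CPM of Cyp51 where they had 184 to 234. Library GC078602, wild type with vehicle, stood high in 3 lipogenic enzymes. It held 465 CPM of Fasn beside 153 to 185 in the others, 51.9 CPM of Acaca beside 22.2 to 24.1, and 54.2 CPM of Elovl6 beside 26.2 to 30.2. Ebp was high in GC078604, wild type with vehicle, at 121 CPM against 71.8 to 80.5, and in GC078618, ARLmon with vehicle, at 129 CPM against 72.2 to 86.1. The others were Lss at 30.2 CPM in GC078620 (19.6 to 22.2 in the rest of ARLmon with vehicle), Tm7sf2 at 12.6 CPM in GC078611 (16.2 to 16.6 in the rest of wild type with testosterone), and Dgat2 at 204 CPM in GC078616 (178 to 182 in the rest of ARLmon with testosterone).

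The testosterone effect differed between genotypes, by the edgeR test of the difference itself, for 3 of the 40 members. Of all tested genes 4.77% were called in that test, 1.42% higher and 3.34% lower. The log2 effect in ARLmon minus that in wild type was -0.92 for Hmgcs1, -0.94 for Me1 and 0.55 for Fads1. The Hmgcs1 call was lost with limma on the deposited log2 values (adjusted p = 0.0533).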

How the results depend on the processing

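The 37 calls of members between groups kept their sign under all 31 alternatives and the 3 calls of a difference between effects under the 30 that give one. Of the 40 calls, 20 missed the threshold under at least 1 alternative, 121 times in all, 77 of them with 1 library left out, and 273 of 308 counts of called members stayed within 1.5 times. For ARLmon against wild type with vehicle, the sterol count of 1 was 0 with library size only, with the groups compared alone, with the deposited log2 values and with the adipocyte covariate, and 2 with DESeq2. The fatty acid count of 3 was 5 with DESeq2 and 1 with the covariate. Under testosterone the covariate took the fatty acid count from 12 to 7, and the calls over all genes from 4842 to 3542. For the difference of testosterone effects the sterol count of 1 was 2 with library size only, DESeq2, limma-voom or GC078604 and GC078618 left out, and 3 with the deposited log2 values. The cause was not tested. With 1 library left out, the wild type testosterone counts ran from 5 to 8 (sterol) and 4 to 7 (fatty acid, 7 without GC078602), the vehicle genotype counts from 0 to 2 and 3 to 6 (6 without GC078602 or GC078604), the testosterone genotype counts from 7 to 11 and 9 to 13, and the differences of effects from 1 to 2 and 2 to 2. Both counts for testosterone in ARLmon stayed at 0 throughout. No paired analysis was possible because the columns carry library codes and not the labels' replicate numbers. Depth limits Idi1 most, with 5 to 156 reads per library.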
